A study of Saccharomyces cerevisiae with 11 samples.

Results

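The hexose transporters HXT1 (YHR094C), HXT2 (YMR011W), HXT3 (YDR345C), HXT4 (YHR092C), HXT5 (YHR096C), HXT6 (YDR343C) and HXT7 (YDR342C) and the glucose sensors SNF3 (YDL194W) and RGT2 (YDL138W) make up the 9 genes described here, of 6834 features listed for each library. They were chosen by name and systematic identifier, after HXT5 had been picked out as a gene with a large difference between no Abf1 and WT Abf1 in these same libraries. Values of that comparison are therefore a description for these genes, and no test of them is read there. The other comparisons share libraries with it, so values of HXT5 in them are not independent of that choice.

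Total RNA was sequenced in 11 libraries from a budding yeast strain, ABF1-aa-V5 clone A9. In it, rapamycin removes the chromosomally encoded general regulatory factor Abf1 from the nucleus (the anchor-away technique). The strain was taken to be in the BY4741 background, which the counts of MET15 put in doubt at that gene. Each culture carried a pRS315 plasmid kept by selection without leucine. The plasmid was empty in no Abf1 (3 libraries). It encoded an Abf1 construct in EM shuffle (2 libraries; essential motif of the second disordered region shuffled, inviable when it is the only Abf1), LS15 (2 libraries; viable, slow growth) and NCS506 (2 libraries; viable, slow growth), and full-length Abf1 in WT Abf1 (2 libraries). The 3 constructs lack the first disordered region, which full-length Abf1 has, and the strain is 1 clone. All cultures, WT Abf1 included, received rapamycin at 8 µg/ml. Exposure was 1.25 h in 10 libraries and 1 h in 1 WT Abf1 library, which also carries another batch date than the other libraries. The anchor acts on Abf1 protein, so transcript levels do not show how far the protein was depleted.

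Budding yeast takes up glucose and fructose by facilitated diffusion through the Hxt proteins, which span the membrane many times and differ in affinity. Hxt1 and Hxt3 are low-affinity carriers used when glucose is plentiful, Hxt2, Hxt4, Hxt6 and Hxt7 have moderate to high affinity and serve at low glucose, and Hxt5 is known for its expression in slowly growing, starved or stressed cells. Snf3 and Rgt2 resemble transporters but act as receptors. Through the casein kinases Yck1 and Yck2 and the ubiquitin ligase component Grr1 they bring about the loss of Mth1 and Std1, partners that the repressor Rgt1 needs to silence HXT genes. The kinase Snf1 and the repressor Mig1 add a separate layer, in which Mig1 represses genes for high-affinity uptake and other sugars when glucose is high.

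The libraries held 920044 to 2195476 counts each (median 1422833), and p-values measure the spread between these libraries. Libraries of the same group differed by more than sampling noise, with a chi-square per degree of freedom of 24.2 between the EM shuffle libraries and 21.7 between the WT Abf1 libraries, 6.11 for LS15, 6.43 for NCS506 and 1.25 to 2.06 among the no Abf1 libraries. MET15, which BY4741 is known to lack, had 131 to 563 counts, and the genotype of the strain at this gene was not tested. The plasmid marker LEU2 had 211 to 1628 counts. Of the other marker genes looked up, HIS3 had 35 to 152 counts and URA3 was not among the listed features.

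The members were placed on the R64 assembly as annotated by RefSeq. HXT4 (chrVIII:287081-288811), HXT1 (chrVIII:290913-292625) and HXT5 (chrVIII:294669-296447) lie in a row on the minus strand of chromosome VIII. HXT7 (chrIV:1154216-1155928), HXT6 (chrIV:1159608-1161320) and HXT3 (chrIV:1162957-1164660) lie in a row on the minus strand of chromosome IV. HXT2 (chrXIII:288079-289704), SNF3 (chrIV:111580-114234) and RGT2 (chrIV:213351-215642) are on plus strands. Each gene has 1 coding exon. The coding sequences of the transporters shared 63.5% (HXT2 and HXT5) to 81.9% (HXT1 and HXT3, HXT4 and HXT7) of aligned bases, apart from HXT6 and HXT7, which shared 99.8%. SNF3 and RGT2 shared 58.5%.

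HXT6 and HXT7 differ in 3 of 1713 coding bases, and their longest stretch of identity runs over 1631 bases. Counted from 1 at the first base of the start codon, with the HXT6 base first, the differences are T1632C, G1666A and T1677C. Bases 1626 to 1683 of each gene are shown because they hold every base by which a read from the coding sequence could be assigned, with the differing bases in capitals (R64, minus strand, HXT6 chrIV:1159638-1159695 and HXT7 chrIV:1154246-1154303).
HXT6: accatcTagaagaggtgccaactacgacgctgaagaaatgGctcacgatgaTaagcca
HXT7: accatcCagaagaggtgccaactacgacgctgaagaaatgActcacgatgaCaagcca
The deposited counts and TPM treated these genes differently. TPM multiplied by gene length, and scaled in each library so that the median gene matched its count, implied 8.11 times the counted reads for HXT6 (5.97 to 11.6 over libraries) and 15.3 times for HXT7 (12.3 to 19.3). The other 7 members had median ratios of 0.978 to 1.08. Among 2466 genes with at least 50 counts in every library, the 5th and 95th percentiles were 0.869 and 1.35, and 10 genes had a ratio above that of HXT6. The counts of this gene pair are a small part of what TPM assigns to it and are given mainly as a sum. Values of HXT6 or HXT7 alone rest on the few assigned reads, and how either was assigned between the copies is uncertain.

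The 600 bases upstream of each start codon were searched on both strands for letters known from glucose regulation, namely CGGANNA (Rgt1), the words CCGGGG or CTGGGG or GCGGGG or GTGGGG (Mig1), the stress response element AGGGG, and the Abf1 consensus. CGGANNA was found upstream of 6 of 9 members and of 48.0% of 6005 genes. HXT3 had 7 matches, HXT1 had 4, and HXT2 and HXT5 had 3 each, whereas 3.71% of genes had 3 or more. The Mig1 words were found upstream of 7 members (27.8% of genes), absent from HXT5 and RGT2. The stress element was found upstream of 7 members (39.7% of genes), with 3 matches at HXT7, 2 each at HXT5 and HXT6 and none at HXT2 or SNF3. The Abf1 consensus was found upstream of 0 of 9 members and of 19.7% of genes. No matches of different motifs overlapped within these windows. A match is a string of letters and not a known binding site.

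Stretches holding these letters are shown for HXT5, HXT1, HXT2 and SNF3, the 4 members called in LS15 against WT Abf1. Capitals mark CGGANNA and AGGGG in HXT5 (chrVIII:296733-297001, minus strand, 554 to 286 bases upstream of the start codon) and CGGANNA in HXT1 (chrVIII:293013-293114, minus strand, 489 to 388 bases upstream). They mark CGGANNA with a Mig1 word between 2 such matches in HXT2 (chrXIII:287644-287693, plus strand, 435 to 386 bases upstream) and Mig1 words in SNF3 (chrIV:111260-111351, plus strand, 320 to 229 bases upstream), all on either strand and from the R64 assembly.
HXT5: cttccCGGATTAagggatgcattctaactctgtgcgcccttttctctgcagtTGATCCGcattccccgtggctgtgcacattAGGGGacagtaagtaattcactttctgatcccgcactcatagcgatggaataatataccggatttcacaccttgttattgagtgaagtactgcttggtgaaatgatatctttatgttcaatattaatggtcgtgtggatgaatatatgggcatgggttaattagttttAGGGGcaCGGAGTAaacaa
HXT1: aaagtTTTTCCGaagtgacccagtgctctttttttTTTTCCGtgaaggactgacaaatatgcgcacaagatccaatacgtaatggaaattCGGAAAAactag
HXT2: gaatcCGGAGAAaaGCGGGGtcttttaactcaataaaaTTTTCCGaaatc
SNF3: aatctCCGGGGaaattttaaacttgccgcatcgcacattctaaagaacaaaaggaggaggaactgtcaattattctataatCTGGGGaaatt

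HXT5 varied most among the members, with 54.2-fold between the highest and the lowest library. Its level, in CPM (counts scaled to a common library size after TMM normalisation), was 303, 385 and 399 in the no Abf1 libraries. EM shuffle had 37.6 and 7.36 CPM (85 and 14 counts), LS15 had 366 and 168 CPM, and NCS506 had 99.99 and 51.9 CPM. WT Abf1 had 43.6 CPM at 1 h (52 counts) and 16.8 CPM at 1.25 h (24 counts). The lowest values, and the folds that use them, thus rest on few counts. LS15 overlapped no Abf1, NCS506 lay below both and above WT Abf1, and EM shuffle and WT Abf1 overlapped. In no Abf1 the level was 12.2 times that in WT Abf1 (log2 fold change 3.61, SE 0.59). The log2 fold change was 4.43 without the 1 h WT Abf1 library, which leaves libraries of a single batch date and exposure. On the scale of TPM, per kilobase, HXT5 was below each of the other transporters in every no Abf1 library, with HXT6 and HXT7 summed, at 3.18% to 4.08% of the summed transporter level, against 0.67% and 0.29% in WT Abf1.

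**Figure D1:**
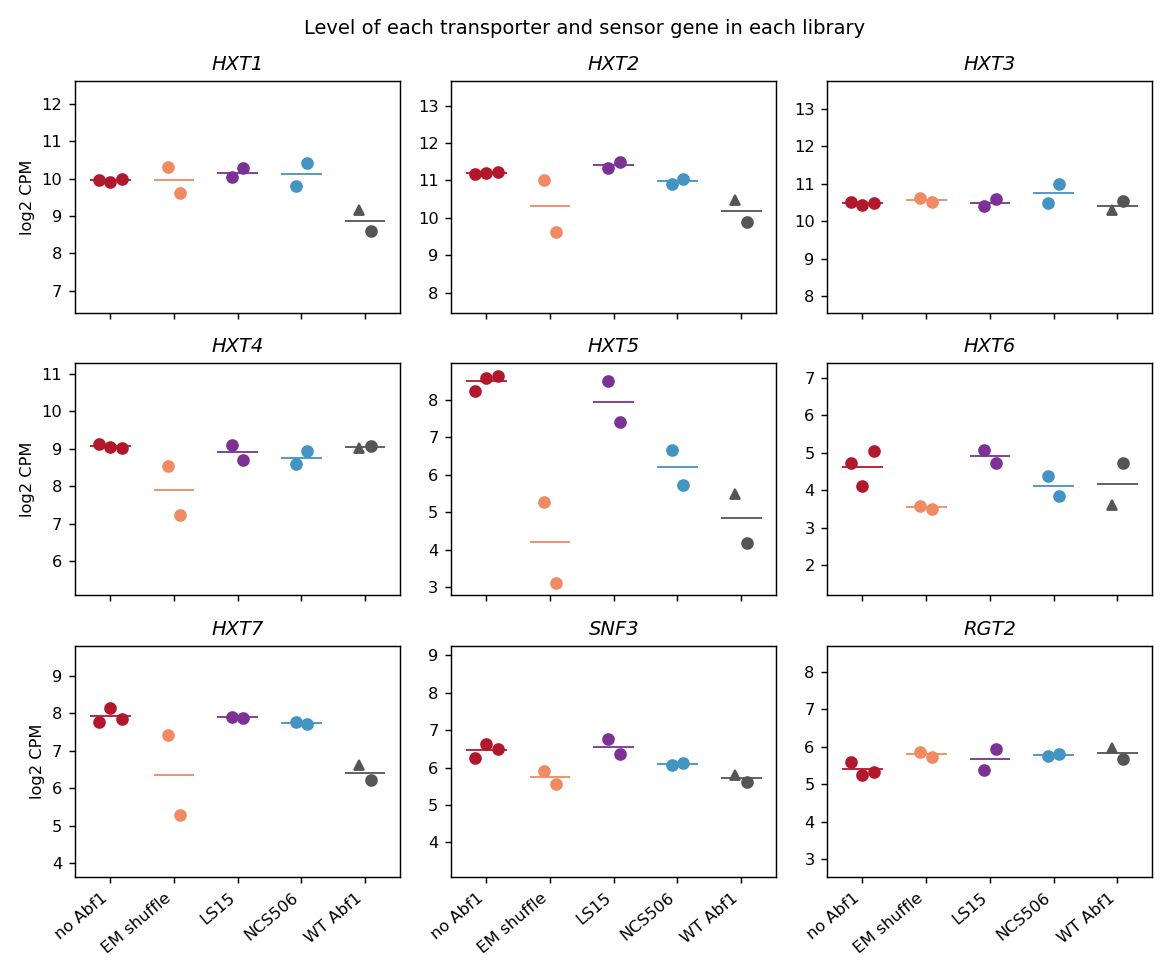
Log2 CPM (vertical axes, each spanning the same log2 range) of each gene in every library. Points are libraries, triangles mark the 1 h WT Abf1 library and lines are group means; HXT5 spread over 5.52 log2 units and HXT3 over 0.71.

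HXT1, a low-affinity transporter induced by high glucose, was lowest in WT Abf1. It had 997, 961 and 1013 CPM in no Abf1, 1269 and 779 CPM in EM shuffle, 1051 and 1238 CPM in LS15 and 899.9 and 1360 CPM in NCS506, against 566 (1 h) and 389 (1.25 h) CPM in WT Abf1. All 9 libraries without full-length Abf1 exceeded both WT Abf1 libraries. Among the other 4 groups each overlapped the next in the order of means, while LS15 (both libraries) lay above all no Abf1 libraries. HXT2, a high-affinity carrier, had 2284, 2356 and 2378 CPM in no Abf1, 2058 and 789 CPM in EM shuffle, 2575 and 2866 CPM in LS15 and 1907 and 2108 CPM in NCS506, against 1429 (1 h) and 937 (1.25 h) CPM in WT Abf1. The second EM shuffle library was the lowest of all for HXT2. Relative to WT Abf1, no Abf1 was higher by 1.05 (SE 0.26) for HXT1 and 0.98 (SE 0.33) for HXT2 on the log2 scale.

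HXT6 and HXT7, near-identical high-affinity carriers, were counted together at 242, 296 and 262 CPM in no Abf1, 181 and 47.8 CPM in EM shuffle, 271 and 260 CPM in LS15 and 237 and 220.4 CPM in NCS506, against 107 (1 h) and 98.4 (1.25 h) CPM in WT Abf1. LS15 lay within the range of no Abf1, NCS506 lay between these and WT Abf1, and the EM shuffle libraries lay on either side of WT Abf1. The sum in no Abf1 was 2.59 times that in WT Abf1 (log2 fold change 1.37, SE 0.39). From TPM, brought to the scale of the counts, the sum was 3860 ± 301 CPM in no Abf1 (SD, n = 3), 1536 ± 980 CPM in EM shuffle, 3860 ± 361 CPM in LS15, 2761 ± 114 CPM in NCS506 and 1670 ± 295 CPM in WT Abf1 (SD, n = 2 each), with a log2 fold change of 1.22 in no Abf1 against WT Abf1. On both scales no Abf1 and LS15 were highest and overlapped, NCS506 was next without overlap, and EM shuffle and WT Abf1 overlapped.

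On the per-kilobase TPM scale this pair held the largest share of the summed level of the 7 transporters in no Abf1 (37.3% to 40.4%), LS15 (39.96% and 35.2%) and NCS506 (35.9% and 29.3%). It also held the largest share in the first EM shuffle library (28.1%, with HXT2 at 27.6%) and the 1 h WT Abf1 library (31.5%). HXT3 held the largest share in the second EM shuffle library (37.1%) and in the 1.25 h WT Abf1 library (32.2%). The summed level was 5493 to 5902 CPM per kilobase in no Abf1, 4632 and 2482 in EM shuffle, 6012 and 5978 in LS15 and 4623 and 5341 in NCS506, against 3485 (1 h) and 2951 (1.25 h) in WT Abf1. Bulk RNA cannot separate fewer expressing cells from less RNA in each cell.

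**Figure D2:**
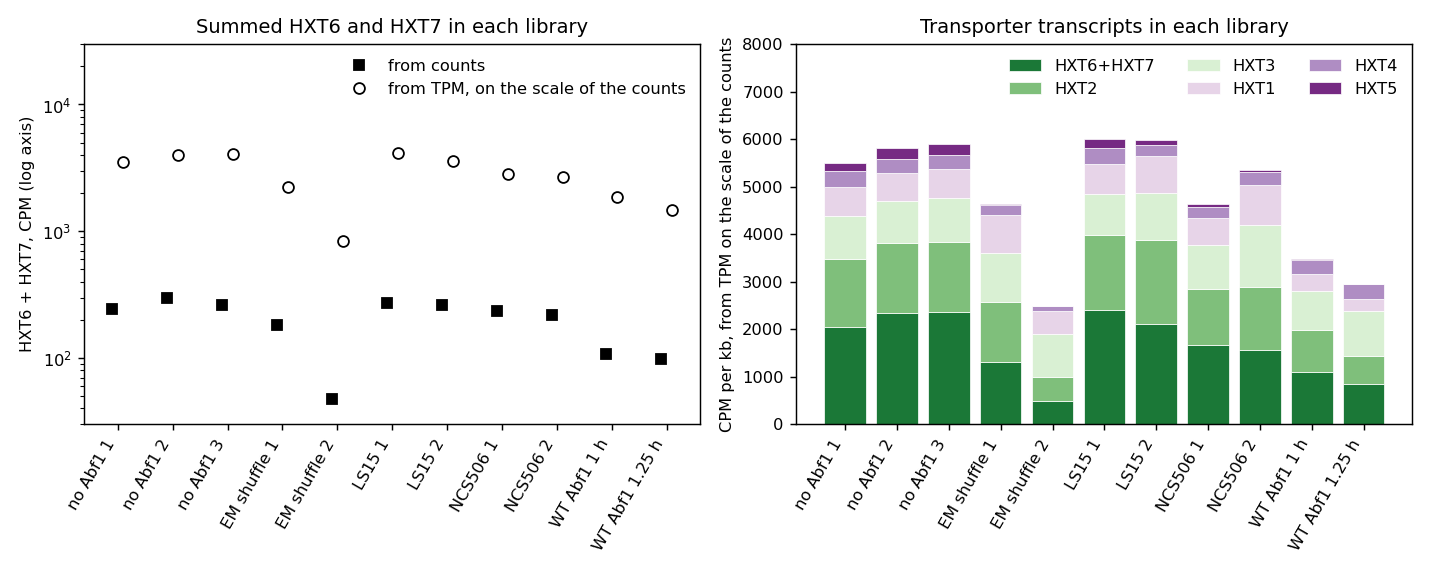
Left, summed HXT6 and HXT7 in each library from counts (squares) and from TPM on the scale of the counts (circles), in CPM on a log axis; the TPM values were 12.0 to 17.6 times the counted ones. Right, stacked level of the 7 transporters in CPM per kilobase from TPM, highest in LS15 and no Abf1 and lowest in the second EM shuffle library (2482).

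HXT3 and HXT4 differed little between no Abf1 and WT Abf1. HXT3, a low-affinity transporter, had 1460, 1376 and 1435 CPM in no Abf1, 1572 and 1458 CPM in EM shuffle, 1348 and 1540 CPM in LS15 and 1449 and 2053 CPM in NCS506, against 1255 (1 h) and 1495 (1.25 h) CPM in WT Abf1. Each group overlapped the next in the order of means, and the spread over all libraries (0.71 on the log2 scale) was below the median of all features (1.03). HXT4, a carrier of moderate to high affinity, had 563, 532 and 519 CPM in no Abf1, 370.2 and 149 CPM in EM shuffle, 551 and 415 CPM in LS15 and 385 and 487 CPM in NCS506, against 522 (1 h) and 542 (1.25 h) CPM in WT Abf1. Only the EM shuffle libraries stood below the other groups for HXT4, without overlap.

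The sensors parted from each other. SNF3, the receptor for low glucose, had 75.2, 98.3 and 88.4 CPM in no Abf1, 58.9 and 46.3 CPM in EM shuffle, 107 and 80.5 CPM in LS15 and 65.4 and 68.9 CPM in NCS506, against 54.6 (1 h) and 48.2 (1.25 h) CPM in WT Abf1. No Abf1 exceeded WT Abf1 by 0.77 (SE 0.20) on the log2 scale. RGT2, the receptor for high glucose, had 47.1, 36.5 and 39.1 CPM in no Abf1, 57.1 and 52.0 CPM in EM shuffle, 40.5 and 59.7 CPM in LS15 and 52.1 and 54.8 CPM in NCS506, against 61.3 (1 h) and 49.6 (1.25 h) CPM in WT Abf1. RGT2 had its lowest mean in no Abf1 (40.9 CPM), where the SNF3 mean was the second highest (87.3 CPM), and its spread over libraries was 0.73 on the log2 scale. Groups next to each other in the order of RGT2 means overlapped, no Abf1 with LS15. All no Abf1 libraries lay below every WT Abf1, EM shuffle and NCS506 library for RGT2.

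Over all 5456 features, no Abf1 was called higher than WT Abf1 at 9.73% and lower at 13.7% (edgeR quasi-likelihood test, Benjamini-Hochberg adjusted p under 0.05). By that rule 5 of 9 members were higher (HXT1, HXT2, HXT5, HXT7 and SNF3) and 0 lower, from which nothing is read, since the choice of genes used this comparison. The median log2 fold change of the members was 0.77, against 0.02 over all features. With 1 library left out at a time, the log2 fold change of HXT5 was 3.05 to 4.43, that of HXT1 0.80 to 1.35 and that of HXT2 0.71 to 1.32. It was 0.67 to 0.86 for SNF3 and 1.29 to 1.44 for the HXT6 and HXT7 sum.

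LS15 against WT Abf1 gave 4 members higher and 0 lower, against a background of 4.47% of features higher and 6.76% lower. By edgeR with Benjamini-Hochberg adjustment, HXT5 was 8.88 times higher (log2 fold change 3.15, SE 0.61, adjusted p = 0.0168). HXT1 (1.26, SE 0.28, adjusted p = 0.0223), HXT2 (1.20, SE 0.36, adjusted p = 0.0498) and SNF3 (0.85, SE 0.21, adjusted p = 0.031) were also called by the same test. The HXT6 and HXT7 sum was 2.58 times higher and did not pass (1.37, SE 0.41, adjusted p = 0.0532, edgeR). Where a group is left with 1 library, that library is assumed to vary like the other groups, which supply the spread. No member was called without the first LS15 library or without the 1.25 h WT Abf1 library, where HXT5 had log2 fold changes of 2.50 and 2.59. Without the second LS15 library HXT5 and SNF3 remained called, and without the 1 h WT Abf1 library HXT5 and HXT1 did. In a fit of only the LS15 and WT Abf1 libraries 0 members and 1 feature in all were called.

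NCS506 against WT Abf1 gave 0 of 9 members at an adjusted p under 0.05 by edgeR, against 0.055% of features higher and 0.532% lower. At an unadjusted p under 0.05 there were 3 members, and DESeq2 called 2, HXT1 and HXT7. HXT1 was 2.37 times higher (log2 fold change 1.24, SE 0.28, edgeR adjusted p = 0.0719). HXT2 (0.76, SE 0.35), HXT5 (1.37, SE 0.61) and the HXT6 and HXT7 sum (1.15, SE 0.41) had positive log2 fold changes that did not pass.

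EM shuffle against WT Abf1 also gave 0 of 9 members by edgeR, against 0.678% of features higher and 1.56% lower. At an unadjusted p under 0.05 there were 2 members, and DESeq2 called the same count, HXT1 and HXT4. HXT1 was 2.15 times higher (log2 fold change 1.10, SE 0.28, edgeR adjusted p = 0.0627) and HXT4 was 0.489 times as high (−1.03, SE 0.32, edgeR adjusted p = 0.12). The EM shuffle libraries differed widely. For HXT7 the log2 fold change was 0.31 (SE 0.47) with both, 1.01 without the second and −1.16 without the first, so its sign depended on the library kept. The same held for HXT2 (0.80 without the second, −0.59 without the first), HXT5 (0.35 and −1.99), SNF3 (0.20 and −0.15) and RGT2 (0.05 and −0.09). The HXT6 and HXT7 sum was 0.81 without the second and −1.10 without the first. HXT1, HXT3, HXT4 and HXT6 kept their signs. HXT1 was 1.41 without the second library and HXT4 was −1.84 without the first. Each of these fits keeps 1 EM shuffle library and takes the spread from other groups, so no difference is read from it for EM shuffle. An adjusted p above the threshold does not show that EM shuffle and WT Abf1 are alike.

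**Figure D3:**
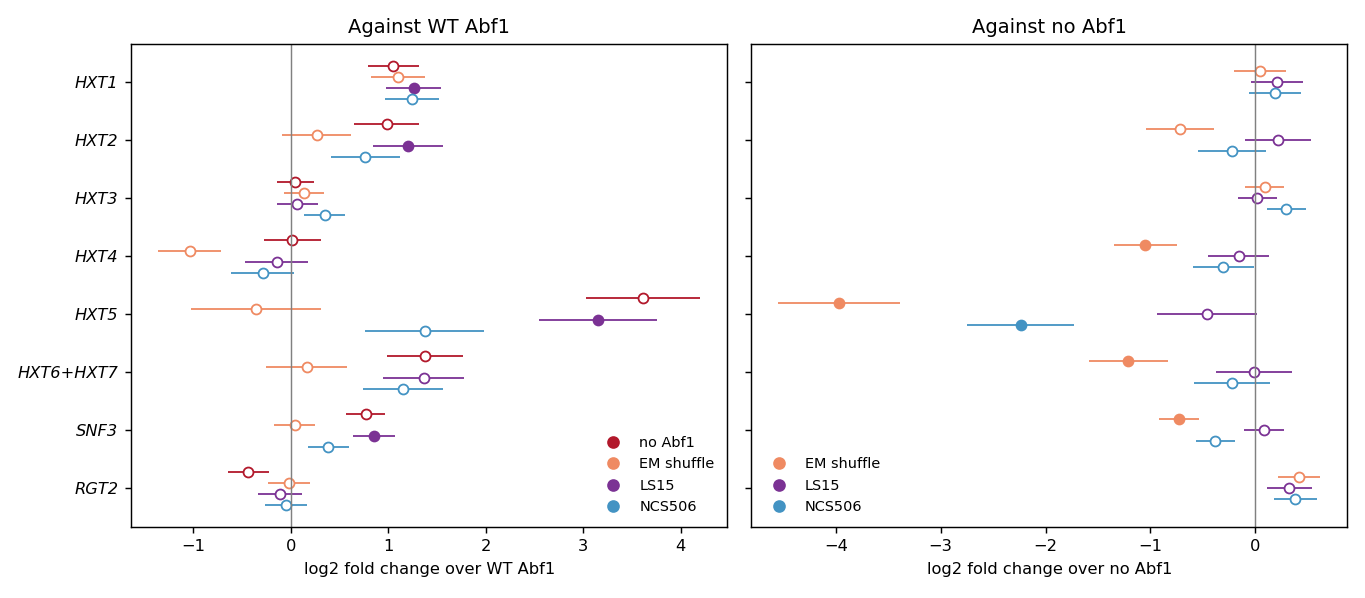
Log2 fold changes (points) with standard errors (bars) over WT Abf1 (left) and over no Abf1 (right). Filled points passed an edgeR adjusted p of 0.05; no Abf1 over WT Abf1 is drawn open as a description. HXT5 had the widest range, with 3.61 in no Abf1 over WT Abf1 and −3.97 in EM shuffle over no Abf1.

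EM shuffle fell below no Abf1 at 4 of 9 members, against 11.1% of features lower and 12.9% higher. HXT5 in EM shuffle was 0.0639 times as high (log2 fold change −3.97, SE 0.58, adjusted p = 0.00251, edgeR). The choice of HXT5 had used these no Abf1 libraries. Its values here, also with libraries left out, are therefore not independent of that choice. HXT4 (−1.05, SE 0.30, adjusted p = 0.0286), SNF3 (−0.73, SE 0.19, adjusted p = 0.0202) and HXT6 (−1.22, SE 0.39, adjusted p = 0.0427) were lower by the same edgeR test, as was the HXT6 and HXT7 sum (−1.21, SE 0.38, adjusted p = 0.0381). HXT6 had 10.6 and 9.99 CPM in EM shuffle (24 and 19 counts), against 25.1, 15.9 and 31.9 CPM in no Abf1 (25, 17 and 31 counts). With TPM on the scale of the counts, HXT6 was not called (−1.01, limma adjusted p = 0.133). The median member was −0.73, against 0.03 over all features. HXT5 stayed called when any library of either group was left out (−5.61 to −3.26, adjusted p at most 0.017, edgeR). It was the only member called without the last no Abf1 library or without the second EM shuffle library. SNF3 was the only other one without the first no Abf1 library and HXT6 without the second. Without the first EM shuffle library 5 members were called (HXT2, HXT4, HXT5, HXT7 and SNF3). HXT4 went to −0.54 and the HXT6 and HXT7 sum to −0.56 without the second EM shuffle library, and to −1.86 and −2.48 without the first. HXT1 (1269 and 779 CPM in EM shuffle, against 961 to 1013 CPM in no Abf1) and HXT3 did not pass.

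LS15 against no Abf1 gave 0 of 9 members by edgeR, with 0% of features called higher and 0% lower. At an unadjusted p under 0.05 there were 0 members and 359 features, and DESeq2 called 0 members and 1 feature. HXT5 had a log2 fold change of −0.46 (SE 0.47), which was 0.02 without the second LS15 library and −1.11 without the first. A p above the threshold does not show that these groups are alike. NCS506 against no Abf1 gave 1 member lower, HXT5 (0.212 times as high, log2 fold change −2.24, SE 0.51, adjusted p = 0.0388, edgeR), against 0.788% of features lower and 2.4% higher. Here too, the choice of HXT5 had used the no Abf1 libraries. No feature at all was called in this comparison when any 1 of its 5 libraries was left out, and HXT5 then had log2 fold changes of −2.80 to −1.86 (edgeR adjusted p = 0.119 to 0.316).

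The other HXT genes and GAL2, the galactose permease, were at most weakly represented. HXT8 had 1 to 12 counts and GAL2 1 to 7 counts per library, HXT16 had 0 counts in all 11 libraries, and 0 of the 10 genes passed the filter on low counts.

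Of the pathway from Snf3 and Rgt2 to Rgt1, 1 of 8 genes was higher in no Abf1 against WT Abf1, GRR1 (log2 fold change 0.60, SE 0.15, edgeR adjusted p = 0.0161), and 0 were lower, a share near the 9.73% of all features called higher. The Rgt1 partners MTH1 (0.74, SE 0.29) and STD1 (−0.07, SE 0.21), RGT1 itself (0.38, SE 0.21), the kinases YCK1 (0.12) and YCK2 (0.11) and the corepressor gene CYC8 (0.08) did not pass. MTH1 was the only gene of this list called in EM shuffle against no Abf1, with 65.7 and 155 CPM in EM shuffle against 217 to 239 CPM in no Abf1 (−1.04, SE 0.29, edgeR adjusted p = 0.0265). None of this list was called in that comparison when any no Abf1 library or the second EM shuffle library was left out, and without the first EM shuffle library 1 was higher and 1 lower. Both comparisons share the no Abf1 libraries, as they do for the lists below. The GRR1 call in no Abf1 against WT Abf1 was lost without the second or last no Abf1 library or the 1.25 h WT Abf1 library. GRR1 was also the 1 gene of this list called in LS15 against WT Abf1 (0.78, SE 0.17, edgeR adjusted p = 0.02), with 0 called without the first LS15 library or the 1.25 h WT Abf1 library.

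Of 10 genes of the Snf1 and Mig1 pathway, 4 were higher and 1 was lower in no Abf1 against WT Abf1, where 9.73% of all features were higher and 13.7% lower. The repressor genes MIG3 (0.89, SE 0.19) and MIG1 (0.62, SE 0.19), the kinase gene SNF1 (0.56, SE 0.17) and the phosphatase gene GLC7 (0.52, SE 0.16) were higher, and SIP1, a beta subunit of the Snf1 complex, was lower with 24.7 to 35.1 CPM in no Abf1 against 83.8 and 110 CPM in WT Abf1 (−1.63, SE 0.33, edgeR adjusted p = 0.00549). MIG2 (0.24, SE 0.22) did not pass. The count of higher genes was 2 without the first and 1 without the second or last no Abf1 library, 3 without the 1 h and 1 without the 1.25 h WT Abf1 library. By edgeR, MIG3 was also higher than WT Abf1 in EM shuffle (1.10, adjusted p = 0.0253) and LS15 (1.06, adjusted p = 0.0168). In NCS506 MIG3 did not pass (0.97, edgeR adjusted p = 0.0534). MIG3 had at least 53.5 CPM in every other group, against 30.2 and 32.8 CPM in WT Abf1. MIG1 was higher in LS15 too (0.73, edgeR adjusted p = 0.0404). Each of these calls was lost in some fits with 1 library left out. In EM shuffle against no Abf1, where 11.1% of all features were lower, MIG1 (−0.62), GLC7 (−0.57) and SIP2 (−0.62) were lower and 0 were higher. The count of lower genes was 0 when any no Abf1 library or the second EM shuffle library was left out, and in the last of these 1 gene was higher.

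Of 4 genes of hexose phosphorylation, HXK1 (hexokinase 1) and GLK1 (glucokinase) were higher in no Abf1 against WT Abf1, at 1.44 (SE 0.41, edgeR adjusted p = 0.026) and 1.08 (SE 0.32, edgeR adjusted p = 0.0301) on the log2 scale, where 9.73% of all features were higher. HXK1 had 2074 to 2579 CPM in no Abf1 and 364 and 1328 CPM in EM shuffle, against 737 and 1022 CPM in WT Abf1. HXK2, the hexokinase that predominates in glucose, did not pass (−0.37, SE 0.15, edgeR adjusted p = 0.0901), nor did the glucokinase paralog EMI2 (0.61, SE 0.25). DESeq2 called 2 genes of this list higher and 1 lower in that comparison, and by edgeR only HXK2 had a negative log2 fold change. In EM shuffle against no Abf1, HXK1 (−1.49), GLK1 (−1.23) and EMI2 (−1.39) were lower, against 11.1% of all features. In no Abf1 against WT Abf1, 1 gene of this list was higher without the first no Abf1 library and 0 without the second or the last. In EM shuffle against no Abf1, 1 gene of the list was lower without the second or last no Abf1 library. Which gene remained is not given here. Calls were also lost without the 1.25 h WT Abf1 library in the former comparison and without the second EM shuffle library in the latter.

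Of 12 genes that glucose represses, 9 were tested and 5 were higher in no Abf1 against WT Abf1, with 0 lower, against 9.73% of all features higher and 13.7% lower. ACS1 (acetyl-CoA synthetase) had 188 to 355 CPM in no Abf1 against 16.1 and 39.4 CPM in WT Abf1 (3.32, SE 0.58, edgeR adjusted p = 0.00245), and SIP4 (2.11, SE 0.52), JEN1 (lactate permease; 1.10, SE 0.36), ICL1 (isocitrate lyase; 1.04, SE 0.30) and SUC2 (invertase; 1.02, SE 0.25) were the others. Apart from SUC2, these genes were named for the size of this change, and the list was chosen with earlier results of these data known. EM shuffle is compared next with the same no Abf1 libraries, so a drop there is partly built in. In EM shuffle against no Abf1, 7 of the 9 were lower (11.1% of all features), among them ACS1 (−3.20), SIP4 (−2.15), JEN1 (−1.59) and ICL1 (−1.46), and 5 to 7 were lower with each library left out (1 was higher without the first EM shuffle library). In no Abf1 against WT Abf1 the 5 calls were 2 without the second or last no Abf1 library, 3 without the 1 h and 1 without the 1.25 h WT Abf1 library. LS15 against WT Abf1 had 3 higher (ACS1, JEN1 and SUC2; 4.47% of all features), which was 0 without the first LS15 or the 1.25 h WT Abf1 library, 1 without the 1 h WT Abf1 library and 4 without the second LS15 library. NCS506 against no Abf1 had 2 lower (ACS1 and SUC2; 0.788% of all features), and 0 with any of its libraries left out. Of the 3 genes of glucose sensing by Gpr1, the receptor gene GPR1 (0.28), GPA2 (0.49) and RGS2 (−0.54) were not called in no Abf1 against WT Abf1 by edgeR or by DESeq2. At an unadjusted p under 0.05 there was 1 of them, and 1 was higher without the 1 h WT Abf1 library. GPA2 was lower in EM shuffle against no Abf1 (−0.61, SE 0.19, edgeR adjusted p = 0.0363), a call lost when any no Abf1 library or the second EM shuffle library was left out. RGS2 was higher in NCS506 against no Abf1 (1.12, SE 0.25, edgeR adjusted p = 0.0354), a call lost with any of the 5 libraries left out.

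**Figure D4:**
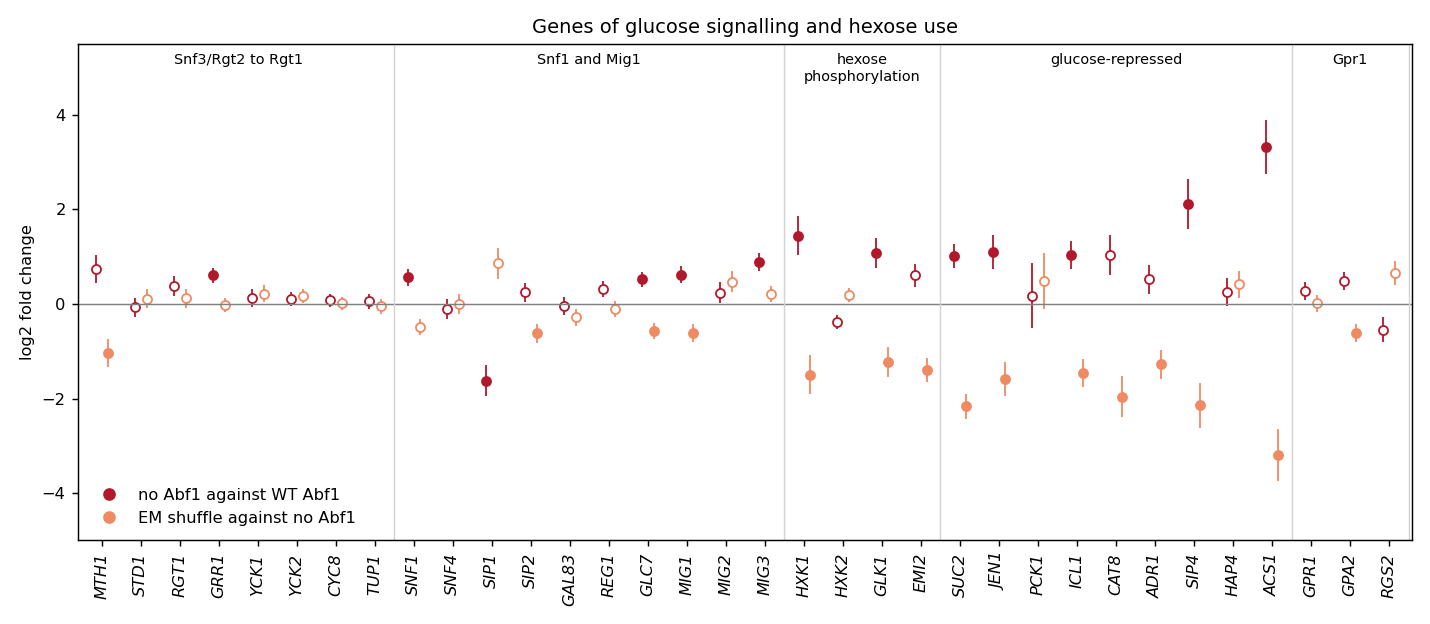
Log2 fold changes (points) with standard errors (bars) of tested genes of 5 lists in no Abf1 against WT Abf1 and EM shuffle against no Abf1. Filled points passed an edgeR adjusted p of 0.05. ACS1 was at 3.32 and −3.20, and both comparisons share the no Abf1 libraries.

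The pattern of HXT5 over the 11 libraries was most like that of HBT1, FMP45, TKL2, PHM7 and GRE1, among 3809 other features with a mean of at least 50 counts. Likeness was the root mean square difference in log2 CPM after the mean of each gene was subtracted, and it was 0.298 for HBT1 and 0.394 for GRE1. HBT1 averaged 1475 CPM in no Abf1, against 129.9 CPM in WT Abf1, and TKL2, a transketolase gene, averaged 444 CPM in no Abf1, against 29.5 CPM in WT Abf1. The genes nearest to HXT2 were MAL31 (0.116), MAL33 (0.147), TDA1 (0.150), RTS3 and LSP1. MAL31 encodes a maltose permease and MAL33 a maltose regulator, and both have near-identical copies at other MAL loci, so their counts are uncertain. The genes nearest to HXT1 were YKR075C (0.220), CNM1, CAR2, REH1 and MAL13. Among the members themselves, HXT3 and RGT2 (0.249) and HXT2 and SNF3 (0.317) had the smallest values, and HXT5 and RGT2 (1.99) the largest. HXT3 and RGT2 were the members that varied least over the libraries (0.71 and 0.73 on the log2 scale). Genes that vary little have a small value by this measure whatever their patterns. The 1 h WT Abf1 library was the lowest of all for HXT3 and the highest for RGT2. All points share the same libraries, and these values are descriptions.

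**Figure D5:**
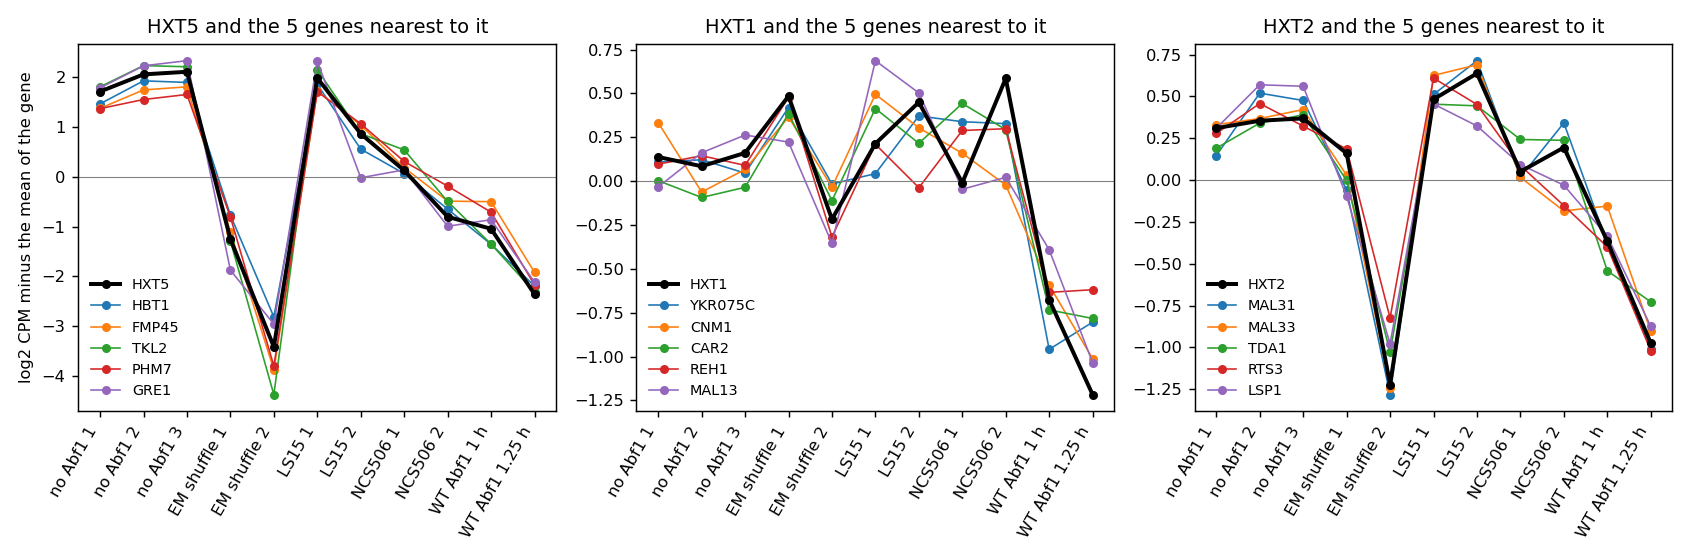
Log2 CPM minus the mean of each gene (vertical axes) in each library for HXT5, HXT1 and HXT2 (black) and the 5 genes nearest to each (coloured). The second EM shuffle library was the lowest point for HXT5 and HXT2, and the 1.25 h WT Abf1 library for HXT1.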

How the data were processed

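STAR alignment to sacCer3 (R64) and RSEM were run by the authors in Snakemake, and they deposited whole-number counts and TPM for 6834 features per library. Versions, the tool that wrote the counts and the strand setting are not given in the sources used here, so overlapping and antisense genes are uncertain. Deposited TPM summed to 8.18% to 14.1% of the nominal total over these features. The sums were highest in EM shuffle (13.2% and 14.1%) and NCS506 (11.6% and 12.1%). Members and gene lists were chosen with earlier results of these data known. RefSeq tables matched 5896 features.

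The main test of counts was edgeR 4.0.16 (R 4.3.3) over all 11 libraries (TMM, filterByExpr, quasi-likelihood F-test, Benjamini-Hochberg adjustment). The filter kept 5456 features, all 9 members among them. The common biological coefficient of variation was 0.171, and log2 CPM used a prior count of 2. HXT6 and HXT7 were also summed. Replicates come from independent clones. Alternatives used DESeq2 1.42.0, RLE size factors, other filters, limma 3.58.1 on the log2 of TPM with a pseudocount of 1 or 0.1, fewer libraries and a replicate block. Limma on TPM brought to the scale of the counts and a fit without WT Abf1 libraries were added after seeing the data. Scripts were tested on simulated data. Python 3.11.15 with pandas 2.3.3 and numpy 2.4.6 read the files, and matplotlib 3.10.9 drew the plots.

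Named genes were all members, MTH1, STD1, RGT1, MIG1, MIG2 and HXK2, up to 4 further genes of each list with the largest change in no Abf1 against WT Abf1, and the 5 features nearest to HXT5, HXT1 and HXT2. SUC2 and SIP2 were named after their values were seen.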

Additional observations from a re-analysis of the deposited data

How the results depend on the processing

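Of 101 counts of members under an alternative, 64 stayed within 1.5 times the main count and 37 did not. Of 352 log2 fold changes, 234 kept direction and side of the threshold, 89 kept direction but lost the call, 20 gained one and 9 changed sign. These covered only selected members in each comparison, in EM shuffle against WT Abf1 HXT1, HXT4 and HXT7. Sign changes of other members there, such as HXT2 and the HXT6 and HXT7 sum, are not among the 9. With 1 library left out at a time, the members called numbered 1 to 4 in no Abf1 against WT Abf1 (5 with all libraries), 0 to 2 in EM shuffle against WT Abf1 (0), 0 to 2 in LS15 against WT Abf1 (4), 1 to 5 in EM shuffle against no Abf1 (4) and 0 in NCS506 against no Abf1 (1). HXT5 in LS15 against no Abf1 then ranged from −1.11 to 0.01568, and HXT7 in EM shuffle against WT Abf1 from −1.16 to 1.01. DESeq2 called 2 members each in EM shuffle and NCS506 against WT Abf1, and keeping every feature with at least 1 count called 1 each. With only the libraries compared, LS15 against WT Abf1 gave 0. Limma on TPM as deposited, with a pseudocount of 1 and of 0.1, called 1 and 1 in no Abf1, 5 and 4 in EM shuffle, 0 and 0 in LS15 and 7 and 7 in NCS506 against WT Abf1, and 6 and 4 in NCS506 against no Abf1. On that scale HXT4 in EM shuffle against no Abf1 was 0.021 and 0.0048, HXT6 0.08598 and 0.11, and SNF3 0.18 and 0.34, beside a median of all features of 0.66 and 1.07, relative to which all 3 were lower. The median was also moved by 0.60 and 0.97 in EM shuffle and by 0.56 and 0.95 in NCS506 against WT Abf1, and by 0.65 and 1.03 in NCS506 against no Abf1, so nearly all calls there were higher (3193 higher and 20 lower in EM shuffle against WT Abf1 with a pseudocount of 1, against 37 and 85 by edgeR on counts). With TPM brought to the scale of the counts, an alternative chosen after seeing the data, NCS506 against no Abf1 gave 0 members, and HXT7 in EM shuffle against WT Abf1 was −0.24. Over all features, LS15 against WT Abf1 fell to 1 call with only the libraries compared (613 in the main test), and NCS506 against no Abf1 to 1 on the scaled TPM (174). The causes of these shifts were not tested.

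Same-numbered libraries deviated together with correlations of 0.18 to 0.37 among the construct groups and −0.13 to −0.08 between these and no Abf1. These values do not settle whether the construct libraries are paired. The main test did not take the numbers to pair libraries, and WT Abf1 carries no number. With a replicate block, EM shuffle against no Abf1 gave 1 member, HXT5 (−4.14, edgeR adjusted p = 0.00656), against 4 in the same libraries without the block, and NCS506 against no Abf1 gave 0, with 34 features called against 228 without the block. Groups of 2 libraries and 920044 to 2195476 counts limit what these tests can detect.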
